A study of Mus musculus with 6 samples.

Results

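The solute carriers described here are 118 genes detected in libraries of sorted mouse blood neutrophils, which also held RNA of other blood cells. They were selected by name and by level. A member is a protein-coding gene whose symbol is *Slc*, a family number, the letter a and a member number, and whose FPKM (fragments scaled to gene length and library total, a level comparable between genes) averaged at least 1 over 6 libraries. Of 29097 genes listed, 265 had such a symbol at any level, and the 118 are part of 10440 genes of any kind that reached this mean. Another 8 solute carriers that met both conditions, among them the main glucose, lactate and iron transporters, were left out of the set by name. Protein-coding was read as at least 1 protein-coding transcript listed for the gene. With no other transcript type allowed, only 18 genes would remain. For 3 members the symbol matches although the protein is no carrier: *Slc4a1ap*, *Slc7a6os* and *Slc9a3r1*.

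The libraries were made from C57BL/6 male mice that were 8 weeks old. In the LIP group (Lig in the sample labels), silk ligatures were tied around the second molars for 14 d, which causes periodontitis, and Ctrl mice carried no ligature for the same time. CD45+CD11b+Ly6G+ neutrophils were sorted from peripheral blood after lysis of red cells. Each group has 3 libraries, each made from the pooled cells of 5 mice by Smart-seq2, which copies full-length mRNA and amplifies it by PCR without molecular identifiers. The comparison asks how neutrophils in the circulation differ when the gums are inflamed. Because a library is a pool, p-values measure the spread between pools and not between single mice.

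Solute carriers are membrane proteins that move small molecules across cell and organelle membranes. Some use the gradients of sodium, protons or other ions, and others exchange one substrate for another. Families are numbered by sequence similarity, so the number often tells the substrate: family 7 carries amino acids, family 25 serves the inner membrane of mitochondria, and families 30 and 39 move zinc out of and into the cytosol. Neutrophils rely heavily on glycolysis, keep few mitochondria and need cystine for glutathione during an oxidative burst, so carriers of sugars, amino acids and ions have known uses in these cells.

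Total counts lay between 52186555 and 57262379 per library, and no member had fewer than 27 reads in any library. Haemoglobin genes took 14.6% to 15.0% of the counts in Ctrl and 1.55% to 1.61% in LIP. All 12 mature neutrophil markers, *Ly6g*, *Itgam*, *S100a8* and *Cxcr2* among them, were expressed and were higher in LIP, with a summed level of 12030 to 13798 CPM in Ctrl and 48740 to 52560 CPM in LIP. CPM here are counts scaled to the library total after TMM normalization, which sets the libraries so that most genes do not change. Markers of cells outside the gate were present in both groups. The summed level of 5 B cell markers was 5731 to 6384 CPM in Ctrl and 1075 to 1216 in LIP, and that of 5 T cell markers 416.8 to 498.9 and 94.8 to 122.3. In such bulk samples, fewer cells of a type and less RNA per cell cannot be told apart. The part of these markers in the results below was not tested, except where a value is given. The members together took 0.475% to 0.519% of the counts in Ctrl and 0.486% to 0.499% in LIP.

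Start-site sequences are shown for the pair of members that rose most and the pair that fell most among those with a mean FPKM of at least 5. Each runs from 250 bases before to 50 bases after the first RefSeq start listed for the gene (GRCm38.p6), 5′ to 3′ on the gene's strand, and capitals mark matches to motifs searched on both strands. The windows are chr16:45158624-45158923 for *Slc35a5*, chr3:50443564-50443863 for *Slc7a11*, chr11:102407468-102407767 for *Slc25a39* and chrX:20291778-20292077 for *Slc9a7*, all on the minus strand.
Slc35a5: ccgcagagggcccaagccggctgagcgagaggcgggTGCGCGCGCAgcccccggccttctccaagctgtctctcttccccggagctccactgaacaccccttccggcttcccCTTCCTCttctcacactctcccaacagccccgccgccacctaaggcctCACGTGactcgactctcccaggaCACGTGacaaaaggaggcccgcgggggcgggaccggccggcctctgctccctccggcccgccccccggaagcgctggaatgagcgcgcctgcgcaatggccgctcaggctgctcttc
Slc7a11: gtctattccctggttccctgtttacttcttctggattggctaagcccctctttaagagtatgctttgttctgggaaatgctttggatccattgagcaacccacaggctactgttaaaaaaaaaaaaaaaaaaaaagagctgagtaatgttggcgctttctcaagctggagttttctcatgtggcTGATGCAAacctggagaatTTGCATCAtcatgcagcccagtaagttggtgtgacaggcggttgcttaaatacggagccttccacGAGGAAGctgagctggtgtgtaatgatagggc
Slc25a39: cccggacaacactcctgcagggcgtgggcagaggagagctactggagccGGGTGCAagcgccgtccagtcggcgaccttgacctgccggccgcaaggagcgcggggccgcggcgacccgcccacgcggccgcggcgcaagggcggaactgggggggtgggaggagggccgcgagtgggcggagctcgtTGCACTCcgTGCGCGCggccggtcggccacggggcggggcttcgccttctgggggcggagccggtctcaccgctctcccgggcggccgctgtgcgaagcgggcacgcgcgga
Slc9a7: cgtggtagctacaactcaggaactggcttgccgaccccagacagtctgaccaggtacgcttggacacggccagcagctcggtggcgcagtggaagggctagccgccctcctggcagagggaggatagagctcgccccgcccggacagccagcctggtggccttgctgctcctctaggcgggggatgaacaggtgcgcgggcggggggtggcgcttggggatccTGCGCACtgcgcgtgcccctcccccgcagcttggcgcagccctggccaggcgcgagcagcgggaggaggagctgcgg

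The *Slc35a5* window held 2 matches to the E-box CACGTG, which 7.24% of 27025 promoters hold, 1 to the PU.1 core GAGGAAG (13.5% of promoters) and an overlapping pair to the metal response element TGCGCNC (15.5%). The *Slc7a11* window held 2 matches to TGATGNAA, the composite of C/EBP and ATF factors to which the amino acid response is known to map (4.06% of promoters), and 1 to the PU.1 core. The *Slc25a39* window held 2 matches to the metal response element TGCACNC (12.4% of promoters) and 1 to TGCGCNC, and the *Slc9a7* window 1 to TGCGCNC. Other motifs searched had no match in these 4 windows. They were AP-1, written TGANTCA and held by 7.93% of promoters. The core of the antioxidant response element was another, in 12.5% of promoters, searched as TGACNNNGC. The last was the GATA motif AGATAA, which 11.4% of promoters hold. A match is a run of letters and not a bound site. Of the 118 members, 91 had a promoter in the RefSeq table, too few for a share over the members.

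Levels of the members covered a wide range. By FPKM, 69 members lay under 5, 23 at 10 or more and 3 at 50 or more. The 10 highest members held 53.4% of the summed FPKM of all members in Ctrl and 54.0% in LIP. *Slc9a3r1*, the scaffold protein NHERF1 that anchors carriers to the cytoskeleton, came first with a mean FPKM of 197.9. *Slc25a5*, which exchanges ADP for ATP across the inner mitochondrial membrane, followed with 180.6, although near-identical gene copies may share its reads. *Slc2a6*, a hexose transporter of lysosomes, had 51.1, *Slc25a39*, which brings glutathione into mitochondria, 49.0, and *Slc3a2*, the heavy chain of several amino acid transporters, 35.4. The next were *Slc25a33* with 33.1, *Slc25a11* with 28.6, *Slc25a3* with 27.2, *Slc44a2* with 25.0 and *Slc50a1* with 23.8. The spread between pools was moderate, with a median coefficient of variation over the members of 19.5% in Ctrl and 17.3% in LIP. Both group means were at least 1 FPKM for 100 members. For 14 members only the Ctrl mean reached 1, 5 of them called lower (*Slc4a7*, *Slc7a1*, *Slc39a10*, *Slc52a2* and *Slc25a25*), and for 4 only the LIP mean, all called higher (*Slc16a14*, *Slc22a20* and *Slc26a2* among them). Such members passed the limit through the group where they are high, so their direction is tied to the selection. Nearest to the limit, *Slc12a4* with 1.001, *Slc16a14* with 1.046 and *Slc26a2* with 1.059 lay just inside, and *Slc22a4* with 0.9982, *Slc10a7* with 0.9965 and *Slc35a3* with 0.9945 just outside.

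Between LIP and Ctrl, solute carriers moved in both directions. Of the 118 members, 39 (33.05%) were higher in LIP and 22 (18.64%) lower at an adjusted p under 0.05, and 57 did not pass (edgeR's quasi-likelihood test with Benjamini-Hochberg adjustment over all 10440 genes, which holds for every adjusted p below). Over all genes tested the shares were 26.5% higher and 27.2% lower, 53.6% in either direction, so the members' total of 51.69% lay near the background. The median log2 fold change was 0.08 over the members and -0.09 over all genes. Members ranged from -2.20 to 2.05, with a median size of 0.69 in either direction against 0.74 over all genes. The 3 Ctrl and 3 LIP libraries did not overlap in 66 of the 118 members. Over all genes tested the share without overlap was larger, 6620 of 10440 (63.4%). Of the 118 members, 22 were called higher and 13 called lower by more than 1 on the log2 scale. Over all genes tested, 15% were called higher and 18.3% called lower by that much. Without the 3 that are not carriers, 38 were higher and 21 lower. Among the 100 members with both group means at 1 FPKM or more, 35 were higher and 17 lower. With each library left out in turn, 28 of the higher and 14 of the lower members passed in all 6 fits.

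These directions depend on the scale. With library totals in place of TMM, 27 members were higher and 38 lower, and the median of all genes moved to -0.42. There 12 of the members called higher did not pass, and 16 that had not passed were lower. Each of the 61 called members kept its sign there, and the members' median stayed 0.17 above that of all genes. With a scaling on the mature neutrophil markers instead, the median of all genes was -2.04, and 116 members had a negative log2 fold change, all but *Slc35a5* (0.09) and *Slc22a15* (0.02). Under that scaling no member was called higher in edgeR, 0 at an unadjusted p under 0.05 as well, and 107 were lower. A rise below is thus a rise against most genes, and relative to the mature neutrophil markers it turns in sign for every member but those 2.

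**Figure D1:**
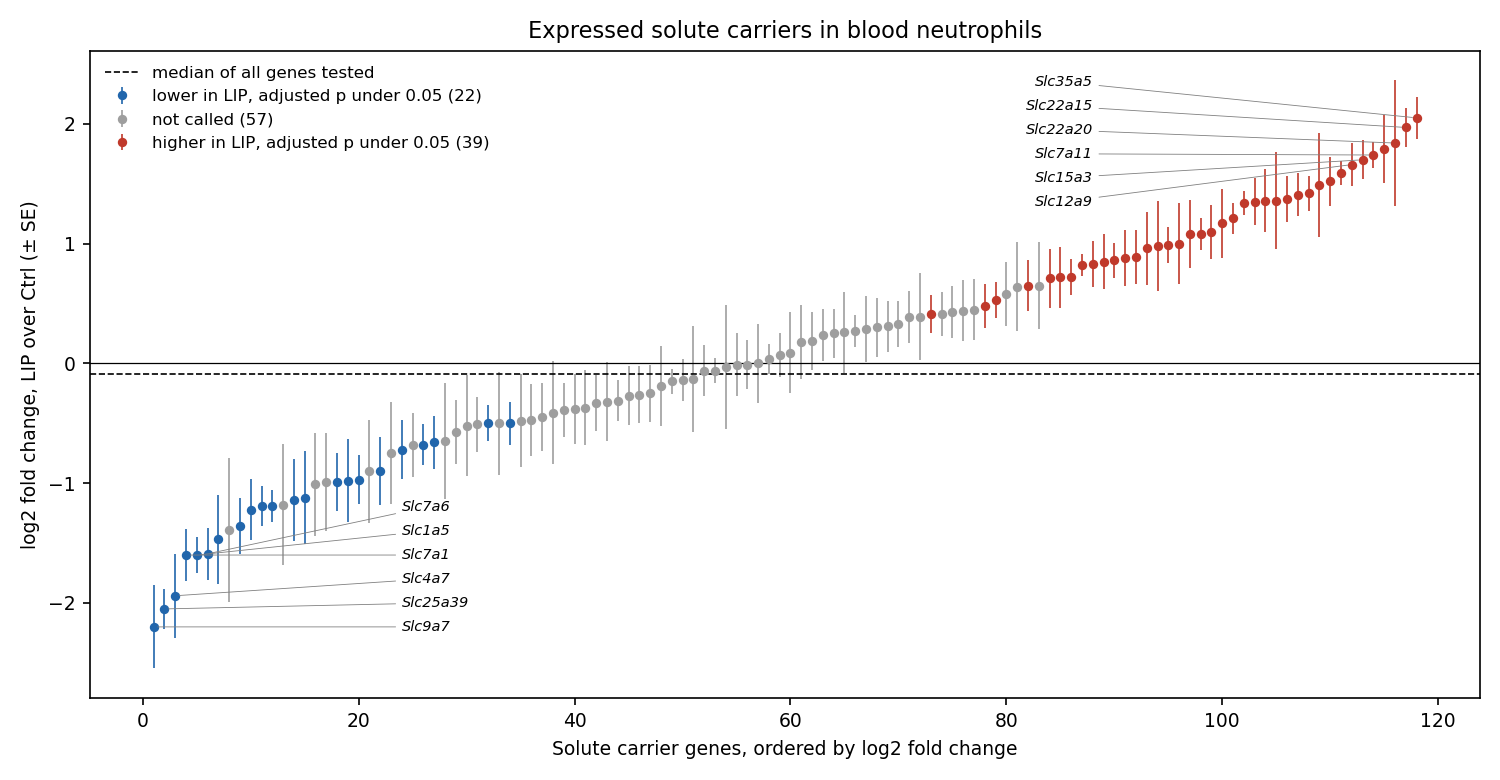
The log2 fold change (LIP over Ctrl, TMM scaling) of each of the 118 solute carriers, ordered by size, with standard errors from edgeR. Red points are the 39 members higher in LIP, blue points the 22 lower and grey points the 57 that did not pass; the dashed line at -0.09 is the median of all genes tested. Scaled on mature neutrophil markers, 116 of the members were negative.

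Amino acid and peptide carriers, 18 members, showed some of the largest changes in both directions: 6 were higher, 5 lower and 7 did not pass, with a median of 0.07 (-0.26 with library totals). Over all genes tested, 26.5% were higher and 27.2% lower, shares that stand beside each class count below. *Slc7a11* (ENSMUSG00000027737, chromosome 3 from 49892526 to 50443614) encodes xCT, which imports cystine in exchange for glutamate. It stood at 114.8, 112.1 and 98.4 CPM in Ctrl and at 382.9, 343.0 and 362.3 in LIP. Every LIP pool lay far above every Ctrl pool. The log2 fold change was 1.74 (SE 0.108, adjusted p = 7.03e-07), a 3.35-fold rise.

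The light chain xCT works only beside the heavy chain *Slc3a2* (CD98), whose level did not rise. *Slc3a2* measured 139.2, 145.5 and 140.7 CPM in Ctrl and 134.5, 128.7 and 120.0 in LIP. The groups did not overlap, and the log2 fold change was -0.15 (SE 0.106, adjusted p = 0.250). It passed as lower with library totals (-0.48, adjusted p = 0.00285), in limma on log2(FPKM + 1) (-0.45, adjusted p = 0.00361) and at a mean FPKM of at least 5 (-0.33, adjusted p = 0.0175). Of the other light chains, *Slc7a6*, an exchanger of cationic for neutral amino acids, went the opposite way, from 42.3, 45.4 and 29.1 CPM in Ctrl to 12.7, 11.6 and 14.5 in LIP. It fell by 1.59 on the log2 scale (SE 0.219, adjusted p = 1.55e-04). *Slc7a5*, which imports large neutral amino acids such as leucine, had 17.9, 12.4 and 11.9 CPM in Ctrl and 7.87, 8.73 and 13.8 in LIP, and *Slc7a7* had 8.59, 4.98 and 4.66 and then 9.44, 8.91 and 5.57. Both overlapped between the groups and did not pass (adjusted p = 0.206 and 0.379), but *Slc7a5*, with a log2 fold change of -0.47, was lower with library totals (-0.80, adjusted p = 0.0459) and in limma on log2(FPKM + 1) (-0.59, adjusted p = 0.0398).

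To set partners side by side, the log2 ratio of their CPM (each plus 0.5) was taken in each library, and the ratios were compared in a two-sided exact permutation test over the 3 against 3 libraries, whose smallest p is 0.1. Of 10 pairs of heteromer partners or close relatives, 6 separated the groups fully, each with an exact p = 0.1 (0.167 after Benjamini-Hochberg adjustment over the 10 pairs), so none could pass 0.05. The ratio of *Slc3a2* to *Slc7a11* went on the log2 scale from 0.39 ± 0.119 in Ctrl to -1.50 ± 0.0903 in LIP (± SD of 3 libraries), which is -1.89 apart. The mRNA of the light chain was thus below that of the heavy chain in Ctrl and above it in LIP in CPM, which are not per length. In mean FPKM, scaled to gene length, *Slc7a11* stayed below *Slc3a2*, at 7.94 against 40.92 in Ctrl and 21.45 against 29.79 in LIP. The ratio of *Slc3a2* to *Slc7a6* rose by 1.38. Those of *Slc3a2* to *Slc7a7* and to *Slc7a5* differed by -0.53 (exact p = 0.2) and 0.32 (exact p = 0.4), with overlapping groups.

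Several importers of glutamine, arginine and neutral amino acids were lower in LIP. *Slc1a5* (ENSMUSG00000001918, chromosome 7 from 16781340 to 16798274) encodes ASCT2, an exchanger of glutamine and other neutral amino acids. It had 130.7, 103.7 and 113.5 CPM in Ctrl and 33.6, 37.3 and 43.6 in LIP. The highest LIP pool lay below the lowest Ctrl pool by a wide margin. Its log2 fold change was -1.60 (SE 0.147, adjusted p = 8.76e-06). *Slc7a1*, the cationic amino acid transporter CAT1 that takes up arginine, had 29.9, 41.4 and 36.8 CPM in Ctrl and 12.9, 13.0 and 9.80 in LIP, with the same log2 fold change of -1.60 (SE 0.214, adjusted p = 1.27e-04). Only its Ctrl mean reached 1 FPKM, so its direction is tied to the selection. *Slc38a1* and *Slc38a2* both take up glutamine with sodium, but only the former passed. *Slc38a1* went from 141.2, 140.6 and 149.8 CPM in Ctrl to 66.9, 70.5 and 52.0 in LIP (log2 fold change -1.19, SE 0.137, adjusted p = 4.38e-05). *Slc38a2* had 164.2, 124.0 and 125.9 CPM in Ctrl and 165.9, 154.7 and 177.5 in LIP. Those groups overlapped, and the log2 fold change of 0.27 (SE 0.134, adjusted p = 0.115) turned to -0.06 with library totals, while DESeq2 called it (0.31, adjusted p = 0.0496). The ratio of *Slc38a1* to *Slc38a2* fell by 1.47 on the log2 scale without overlap (exact p = 0.1, the smallest possible).

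Among carriers of the endosome and lysosome, a pair of relatives parted. *Slc15a3* and *Slc15a4* both export histidine and small peptides from endolysosomes, and the latter is known for its part in signalling by endosomal Toll-like receptors. *Slc15a3* (ENSMUSG00000024737, chromosome 19 from 10839727 to 10859362) had 21.4, 22.4 and 22.9 CPM in Ctrl and 63.3, 86.8 and 66.5 in LIP. *Slc15a4* (ENSMUSG00000029416, chromosome 5 from 127595664 to 127632897) had 57.1, 66.3 and 54.3 CPM in Ctrl and 34.0, 31.9 and 45.2 in LIP. The first rose in every pool and the second fell in every pool against the other group. The log2 fold changes were 1.70 (SE 0.162, adjusted p = 1.14e-05) and -0.68 (SE 0.170, adjusted p = 0.00689). Their log2 ratio went from -1.39 ± 0.158 in Ctrl to 0.96 ± 0.443 in LIP (± SD of 3 libraries) and so rose by 2.35, the largest change among the 10 pairs.

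The sodium-driven family 6 rose in each of its 3 members, which are named after their values were seen. *Slc6a6*, the taurine transporter, had 131.6, 114.5 and 124.7 CPM in Ctrl and 309.1, 321.7 and 309.0 in LIP. Taurine is the most abundant free amino acid of neutrophils and takes up hypochlorous acid. Its transporter rose by 1.34 on the log2 scale with little spread (SE 0.102, adjusted p = 2.40e-06). *Slc6a4*, the serotonin transporter, rose by 1.41, and its values stand with the platelet markers below. *Slc6a13*, which carries GABA and taurine, was low, at 3.09, 4.98 and 1.77 CPM in Ctrl and 8.50, 8.03 and 8.68 in LIP. Its call (log2 fold change 1.36, adjusted p = 0.0161) was lost without Ctrl 1 (adjusted p = 0.0507) or Ctrl 3 (adjusted p = 0.0536).

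**Figure D2:**
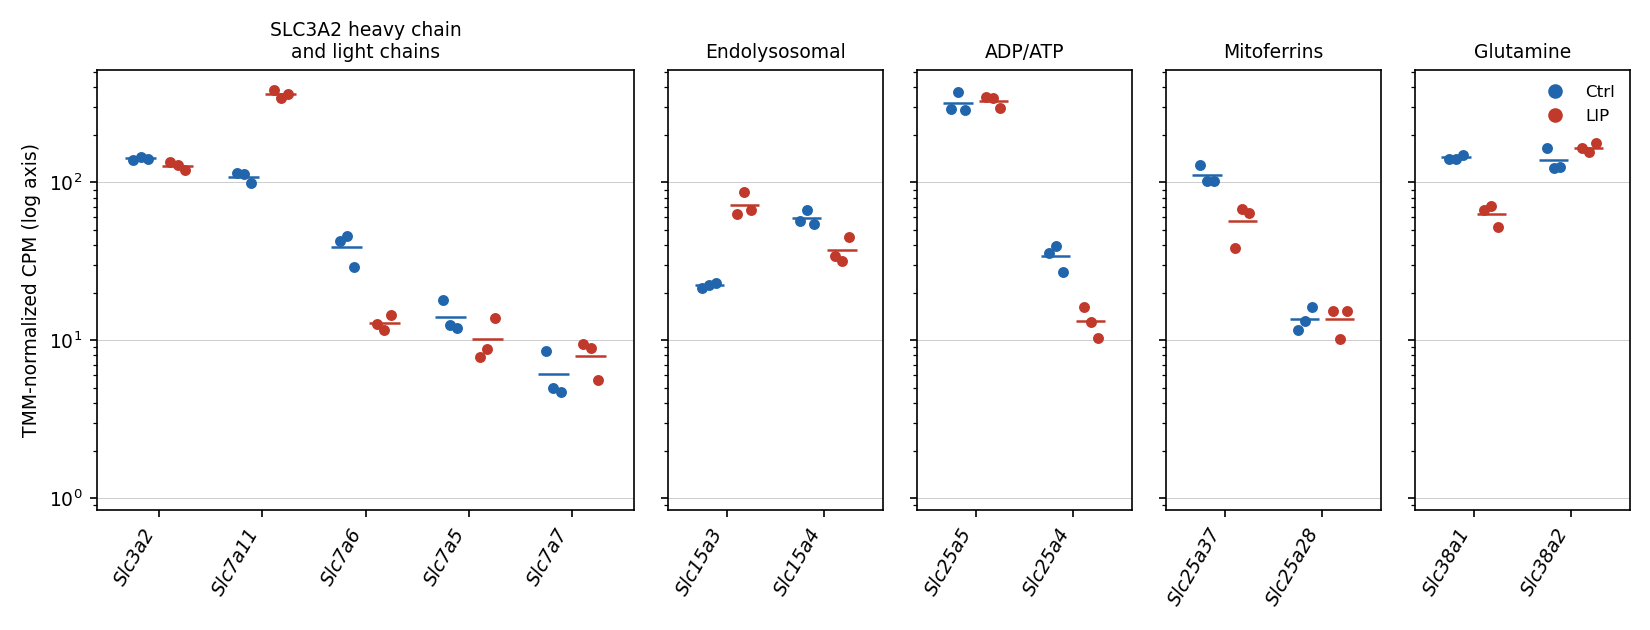
TMM-normalized CPM on a log axis in each of 3 Ctrl (blue) and 3 LIP (red) libraries for partners and relatives, with bars at the group means. In CPM, which are not per length, *Slc7a11* crosses from below to above its heavy chain *Slc3a2*. In mean FPKM *Slc7a11* stays below *Slc3a2* in both groups. *Slc15a3* and *Slc15a4* move in opposite directions. Of *Slc25a4* with *Slc25a5*, *Slc25a37* with *Slc25a28* and *Slc38a1* with *Slc38a2* the first falls. Scaled on mature neutrophil markers, all of these members had negative log2 fold changes.

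Mitochondrial carriers of family 25, the largest class with 27 members, split almost evenly: 8 were higher and 7 lower, 12 did not pass, and the median was -0.06 (-0.39 with library totals). The largest fall was that of *Slc25a39* (ENSMUSG00000018677, chromosome 11 from 102402985 to 102407544), the importer of glutathione into mitochondria. It had 201.4, 275.8 and 189.5 CPM in Ctrl and 49.3, 61.4 and 49.8 in LIP. All 3 LIP pools lay far below the lowest Ctrl pool. It fell by 2.05 on the log2 scale (SE 0.166, adjusted p = 3.54e-06).

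Other falls concern exchange of nucleotides and iron. *Slc25a4*, the ADP/ATP carrier of heart and muscle, had 35.7, 39.3 and 27.0 CPM in Ctrl and 16.2, 13.0 and 10.4 in LIP (log2 fold change -1.36, SE 0.234, adjusted p = 6.94e-04). *Slc25a5*, the far more abundant ADP/ATP carrier, overlapped between the groups, with 291.5, 375.6 and 288.5 CPM in Ctrl and 346.8, 343.1 and 295.5 in LIP. Its log2 fold change was 0.04 (95% interval -0.20 to 0.29, adjusted p = 0.782), and -0.28 with library totals. The ratio of the former to the latter fell by 1.39 without overlap (exact p = 0.1). *Slc25a37*, mitoferrin 1, which imports iron, went from 128.0, 101.6 and 101.9 CPM in Ctrl to 38.6, 67.4 and 63.7 in LIP (log2 fold change -0.97, SE 0.203, adjusted p = 0.00245). *Slc25a28*, mitoferrin 2, had 11.7, 13.1 and 16.3 CPM in Ctrl and 15.3, 10.1 and 15.4 in LIP, with a log2 fold change of -0.01 (adjusted p = 0.969). The ratio of the mitoferrins differed by -0.97, but the groups overlapped (exact p = 0.2).

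The mitochondrial rises were led by *Slc25a24*, a calcium-regulated exchanger of ATP-Mg for phosphate. It had 12.4, 13.0 and 17.9 CPM in Ctrl and 47.6, 37.7 and 39.5 in LIP, a log2 fold change of 1.52 (SE 0.207, adjusted p = 1.41e-04). *Slc25a33*, which carries pyrimidine nucleotides for mitochondrial DNA and RNA synthesis, had 42.3, 51.7 and 42.2 CPM in Ctrl and 96.9, 98.1 and 92.0 in LIP. The LIP pools of this carrier lay within a narrow band about 2.11-fold above Ctrl (log2 fold change 1.08, SE 0.131, adjusted p = 6.44e-05). *Slc25a11*, the exchanger of 2-oxoglutarate for malate that helps move reducing equivalents, had 43.3, 57.5 and 52.9 CPM in Ctrl and 95.2, 76.0 and 81.4 in LIP (log2 fold change 0.72, SE 0.149, adjusted p = 0.00237). The phosphate carrier *Slc25a3*, needed by ATP synthase, did not pass, with 175.7, 162.4 and 162.6 CPM in Ctrl and 152.3, 159.1 and 167.6 in LIP (log2 fold change -0.06, adjusted p = 0.618). It was lower with library totals (-0.39, adjusted p = 0.00945) and in limma on log2(FPKM + 1) (-0.36, adjusted p = 0.0169). Of 24 members annotated to the mitochondrial inner membrane in Gene Ontology, 7 were higher and 7 lower.

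Of 14 ion and pH carriers, 6 were higher and 2 lower, with a median of 0.55 (0.22 with library totals, -1.40 on mature neutrophil markers). These are 42.86% and 14.29%, against 26.5% and 27.2% of all genes tested. With library totals 3 were higher and 4 lower. Sodium/proton exchangers of family 9 set the pH of the cytosol and of organelles. *Slc9a7* (ENSMUSG00000037341, chromosome X from 20105754 to 20291807), the exchanger NHE7 of the trans-Golgi network, had the largest fall of all members. It measured 44.1, 32.8 and 30.6 CPM in Ctrl and 4.43, 6.75 and 12.2 in LIP. The LIP pools spread widely among themselves and still lay below every Ctrl pool. The log2 fold change was -2.20 (SE 0.347, adjusted p = 3.92e-04), a 4.60-fold difference. *Slc9a8*, another Golgi exchanger, had 22.7, 19.6 and 29.6 CPM in Ctrl and 15.8, 18.1 and 23.1 in LIP (log2 fold change -0.33, adjusted p = 0.247), and with library totals it was lower (-0.66, adjusted p = 0.0347).

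Bicarbonate and chloride carriers were also among the called members. *Slc4a7*, which brings sodium and bicarbonate into the cell, had 46.7, 24.5 and 36.0 CPM in Ctrl and 4.97, 10.9 and 12.0 in LIP, a log2 fold change of -1.94 (SE 0.349, adjusted p = 9.28e-04). Only its Ctrl mean reached 1 FPKM, so its direction is tied to the selection. *Slc12a9*, an unusual member of the cation-chloride cotransporters, had 11.5, 12.4 and 14.4 CPM in Ctrl and 39.6, 42.0 and 38.9 in LIP, and rose by 1.66 (SE 0.181, adjusted p = 3.06e-05). The pools of each group lay close together. *Slc26a2* and *Slc26a11*, which carry sulfate and other anions, rose by 0.89 and 0.83 (adjusted p = 0.00757 and 0.00453), the former without passing with library totals (0.56, adjusted p = 0.0543). Only the LIP mean of *Slc26a2* reached 1 FPKM, so its direction is tied to the selection. *Slc9a9* rose by 0.71 (adjusted p = 0.0317), a call lost without Ctrl 1, Ctrl 2, LIP 2 or LIP 3 (adjusted p = 0.0933, 0.0550, 0.0783 and 0.103) and with library totals (0.38, adjusted p = 0.201).

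Carriers of carboxylates and organic ions, 9 members, had 5 higher, and 4 did not pass (median 0.65, 0.32 with library totals and -1.29 on mature neutrophil markers). The 5 are 55.56% of the class, against 26.5% higher over all genes tested. With library totals 3 were higher and 1 lower. Of the 5, *Slc16a10* rose by 0.65 (adjusted p = 0.0267) and passed in only 1 of the 6 fits with a library left out. *Slc18a2* stands with the platelet markers below. *Slc22a15* (ENSMUSG00000033147, chromosome 3 from 101855776 to 101924449) transports zwitterions such as ergothioneine and carnosine. It had 18.2, 14.9 and 15.7 CPM in Ctrl and 70.8, 56.0 and 64.4 in LIP. It rose almost as much as *Slc35a5*, with a log2 fold change of 1.97 (SE 0.166, adjusted p = 4.76e-06). *Slc22a20*, an organic anion transporter, had 0.454, 1.45 and 1.32 CPM in Ctrl and 3.20, 5.50 and 2.85 in LIP, and its log2 fold change of 1.84 (SE 0.525, adjusted p = 0.0133) was not called without LIP 2 (adjusted p = 0.0534). *Slc16a14*, an orphan of the monocarboxylate family, had 1.29, 2.43 and 2.64 CPM in Ctrl and 7.99, 3.89 and 5.94 in LIP, and its log2 fold change of 1.49 (SE 0.433, adjusted p = 0.0148) was not called without Ctrl 1 (adjusted p = 0.0536). *Slc22a20* and *Slc16a14* reached a mean of 1 FPKM in LIP only, so their direction is tied to the selection.

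Sugar carriers, 8 members, had 2 higher and 1 lower (median -0.12, -0.45 with library totals). *Slc2a6* (ENSMUSG00000036067, chromosome 2 from 27021363 to 27027998), the lysosomal hexose transporter GLUT6, ranked just behind *Slc25a5* by FPKM and varied little. It had 98.6, 93.7 and 89.3 CPM in Ctrl and 289.9, 285.8 and 272.4 in LIP. Every LIP pool lay about 3.01-fold above Ctrl (log2 fold change 1.59, SE 0.103, adjusted p = 8.64e-07). *Slc50a1* (ENSMUSG00000027953, chromosome 3 from 89268246 to 89270570), the only mammalian SWEET sugar transporter, went the other way, from 50.7, 57.3 and 43.9 CPM in Ctrl to 21.2, 24.4 and 21.1 in LIP (log2 fold change -1.19, SE 0.168, adjusted p = 1.86e-04). The glucose 6-phosphate antiporters of the endoplasmic reticulum did not pass. *Slc37a4*, whose loss causes neutropenia in glycogen storage disease, had 7.73, 7.92 and 7.54 CPM in Ctrl and 12.5, 5.40 and 9.95 in LIP (log2 fold change 0.26, adjusted p = 0.532, and -0.06 with library totals). *Slc37a2* had 38.4, 22.3 and 34.0 CPM in Ctrl and 21.1, 19.4 and 26.0 in LIP (log2 fold change -0.51, adjusted p = 0.0893, and 0.0132 with library totals). The ratio of *Slc37a2* to *Slc37a4* differed by -0.65 with overlapping groups (exact p = 0.2).

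Nucleotide sugar carriers bring activated sugars into the Golgi for glycosylation, and 4 were members, with 1 higher and 1 lower. *Slc35a5* (ENSMUSG00000022664, chromosome 16 from 45139573 to 45158706) is an orphan of this family and rose more than any other member. It had 33.4, 23.6 and 34.9 CPM in Ctrl and 109.8, 136.7 and 132.9 in LIP. The groups lay far apart, with a log2 fold change of 2.05 (SE 0.173, adjusted p = 4.76e-06), a 4.13-fold difference. *Slc35a4* had 93.7, 83.3 and 75.5 CPM in Ctrl and 51.5, 56.6 and 70.3 in LIP, and its fall by 0.50 (SE 0.151, adjusted p = 0.0171) was not called without Ctrl 1, LIP 1 or LIP 2 (adjusted p = 0.0636, 0.0599 and 0.0609). Its locus overlaps *Apbb3*, so its reads may be divided.

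**Figure D3:**
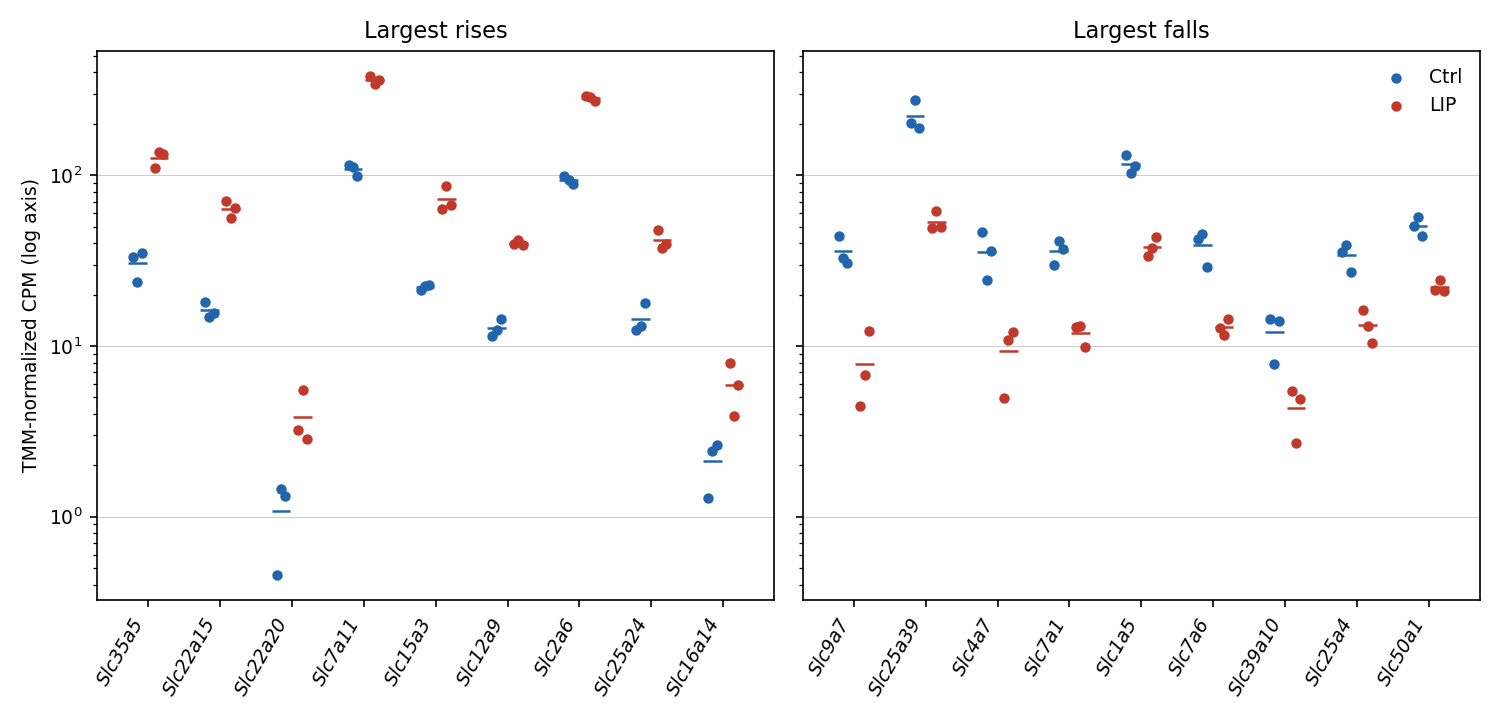
TMM-normalized CPM on a log axis in each of 3 Ctrl (blue) and 3 LIP (red) libraries for members among those with the largest rises (left) and falls (right) of the called ones without overlap, with bars at the group means. The groups are apart for every gene shown; the LIP pools of *Slc9a7* spread from 4.43 to 12.2 CPM, while those of *Slc2a6* lie between 272.4 and 289.9. Scaled on mature neutrophil markers, all of the rises but those of *Slc35a5* and *Slc22a15* turned negative. *Slc22a20* and *Slc16a14* reached a mean of 1 FPKM in LIP only, and *Slc4a7*, *Slc7a1* and *Slc39a10* in Ctrl only, so their directions are tied to the selection.

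Metal carriers, 18 members, had 4 higher, 3 lower and 11 that did not pass (median 0.13, -0.19 with library totals). Both copper transporters were called higher, *Slc31a1* not with library totals. *Slc31a2*, which releases copper from endolysosomes, had 14.4, 15.1 and 11.8 CPM in Ctrl and 32.1, 33.7 and 39.4 in LIP (log2 fold change 1.35, SE 0.195, adjusted p = 2.21e-04). *Slc31a1*, the copper importer of the plasma membrane, rose by 0.85 (adjusted p = 0.00935, and 0.52 with adjusted p = 0.0745 with library totals), and its locus overlaps *Cdc26*. Of 9 zinc importers of family 39, 2 were higher, 2 lower and 5 did not pass. These are 22.22% each way, against 26.5% and 27.2% of all genes tested. *Slc39a4* and *Slc39a13* were higher by 1.10 and 0.88 (adjusted p = 0.00208 and 0.00938), and *Slc39a10* and *Slc39a6* were lower. With library totals *Slc39a13* did not pass (0.54, adjusted p = 0.0710), and its locus overlaps *Psmc3*. *Slc39a10*, known for its role in B cell survival, had 14.3, 7.86 and 14.1 CPM in Ctrl and 5.44, 2.72 and 4.91 in LIP (log2 fold change -1.47, SE 0.373, adjusted p = 0.00721), beside the B cell markers that fell by a median of 2.61. The part of those markers in it was not tested. Only the Ctrl mean of *Slc39a10* reached 1 FPKM, so its direction is tied to the selection. *Slc39a6* fell by 1.14 (adjusted p = 0.0166, lost without Ctrl 1 at 0.0505 and without Ctrl 3 at 0.0687) and overlaps *Elp2*. Of 5 zinc exporters of family 30, only *Slc30a5* passed, with overlapping groups, at 67.0, 21.0 and 51.2 CPM in Ctrl and 27.3, 23.5 and 13.1 in LIP (log2 fold change -1.12, adjusted p = 0.0317, and 0.0620 to 0.143 without Ctrl 1, Ctrl 3, LIP 2 or LIP 3).

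Lipid and choline carriers had 3 of 4 members higher (median 0.94, 0.61 with library totals and -1.02 on mature neutrophil markers), against 26.5% of all genes tested. With library totals 2 of the 4 were higher. *Slc27a4*, which takes up fatty acids and couples them to CoA, had 55.7, 40.8 and 41.3 CPM in Ctrl and 117.2, 130.0 and 122.1 in LIP (log2 fold change 1.42, SE 0.148, adjusted p = 2.18e-05). *Slc44a2*, a choline transporter-like protein that carries a neutrophil alloantigen in humans, had 236.7, 152.9 and 199.2 CPM in Ctrl and 266.8, 289.4 and 292.3 in LIP. It rose by 0.53 (SE 0.148, adjusted p = 0.0123), a difference that did not pass with library totals (log2 fold change 0.20, adjusted p = 0.297). *Slc44a1*, its relative, had 39.6, 19.3 and 22.1 CPM in Ctrl and 72.5, 55.9 and 79.5 in LIP (log2 fold change 1.36, adjusted p = 0.00142). Of 4 nucleoside carriers, only *Slc28a2*, which concentrates purine nucleosides with sodium, passed. It had 66.6, 41.3 and 73.5 CPM in Ctrl and 151.9, 168.1 and 147.4 in LIP (log2 fold change 1.37, SE 0.193, adjusted p = 1.87e-04), while its neighbouring copy *Slc28a2b* had a log2 fold change of -0.99 that did not pass (adjusted p = 0.0640, and 0.0208 with library totals), and reads of such copies may be divided.

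Carriers of vitamins, cofactors and haem, 8 members, had 2 higher and 2 lower. All 4 calls lay near the threshold, and each was lost in several of the fits with a pool left out. *Slc33a1*, which brings acetyl-CoA into the endoplasmic reticulum, had 5.51, 4.48 and 2.93 CPM in Ctrl and 11.3, 5.95 and 8.21 in LIP (log2 fold change 0.98, adjusted p = 0.0471), and without Ctrl 2, Ctrl 3, LIP 1 or LIP 3 its adjusted p was 0.0902, 0.155, 0.138 and 0.0773, and with library totals 0.161. *Slc52a2*, a riboflavin transporter, had 9.83, 15.1 and 14.2 CPM in Ctrl and 5.10, 4.94 and 9.86 in LIP, which overlapped (log2 fold change -0.98, adjusted p = 0.0353). Without Ctrl 2, Ctrl 3, LIP 1 or LIP 2 its adjusted p was 0.120, 0.1004, 0.0785 and 0.105. Only its Ctrl mean reached 1 FPKM, so its direction is tied to the selection. *Slc49a4* rose by 0.41 (adjusted p = 0.0497), which reached 0.0979 to 0.164 without Ctrl 1, Ctrl 3, LIP 2 or LIP 3 and 0.667 with library totals. The haem carrier *Slc48a1* fell by 0.50 (adjusted p = 0.0359), which reached 0.0626 to 0.124 in 5 of the 6 fits with a pool left out, all but that without LIP 1. The locus of *Slc48a1* overlaps *Hdac7*, so its reads may be divided.

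The members that are no carriers went separate ways. *Slc9a3r1* had 286.4, 332.3 and 306.2 CPM in Ctrl and 532.1, 545.0 and 555.1 in LIP, with a log2 fold change of 0.82 (SE 0.0934, adjusted p = 4.07e-05). *Slc4a1ap* had 22.1, 23.3 and 20.1 CPM in Ctrl and 16.5, 14.0 and 9.35 in LIP, with a log2 fold change of -0.72 (adjusted p = 0.0324) that held without LIP 1 only and otherwise reached 0.0577 to 0.0935. *Slc7a6os* had -0.39 and did not pass (adjusted p = 0.174, and 0.0224 with library totals).

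**Figure D4:**
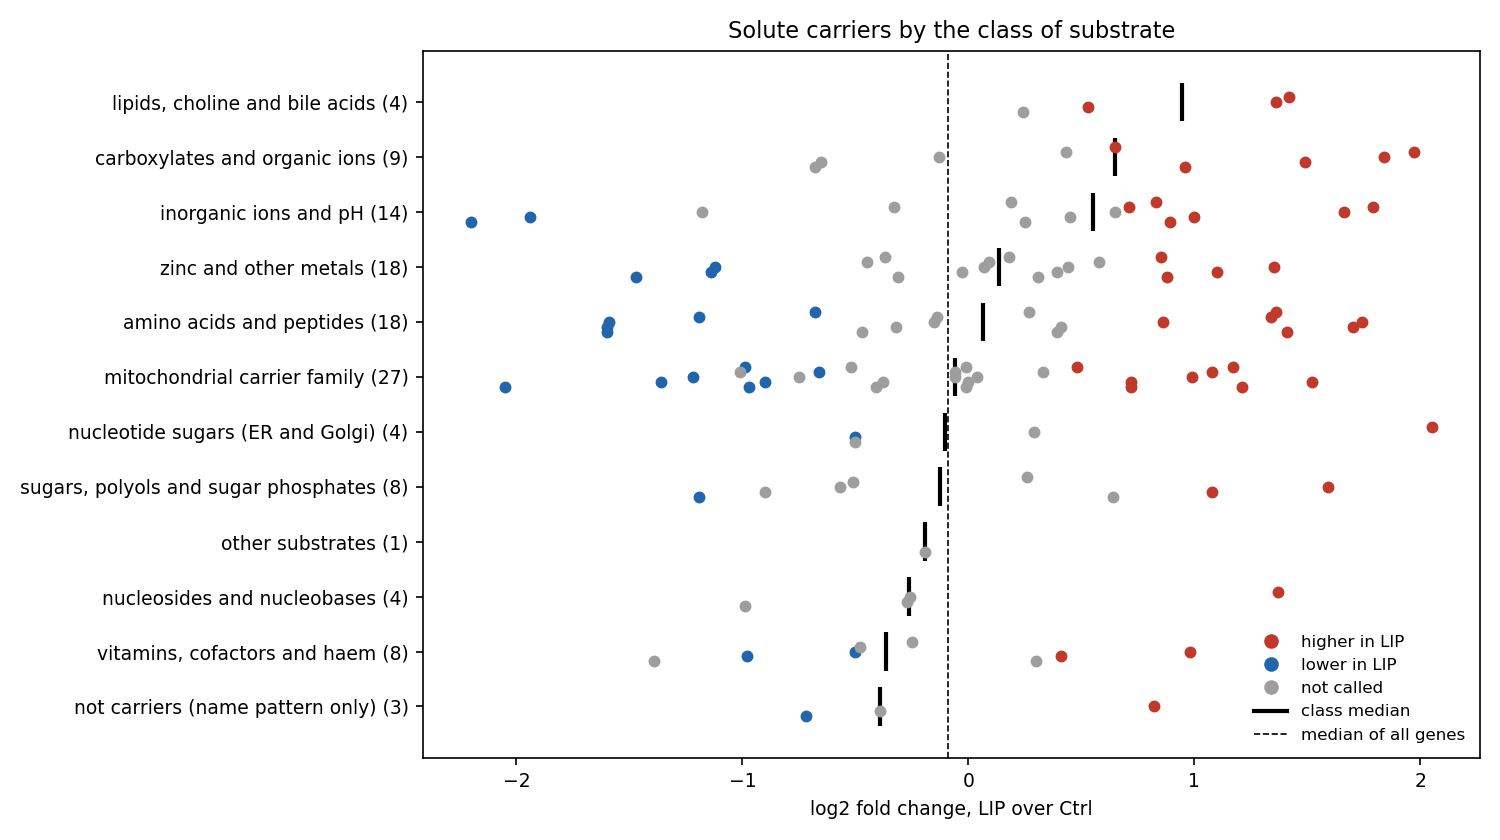
The log2 fold change (LIP over Ctrl, TMM scaling) of each member on the x axis, by class of substrate with the number of members in parentheses. Thick bars are class medians, from 0.94 for lipids and choline to -0.39 for the 3 members that are no carriers, and the dashed line is the median of all genes, -0.09; the classes of amino acid, mitochondrial and metal carriers hold called members on both sides. With library totals the medians of the amino acid and the metal class turn negative, and on mature neutrophil markers all class medians are negative.

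Of solute carriers known under other names, 27 of 40 listed genes were tested, and 12 were higher and 3 lower (median 0.51). These are 44.44% and 11.11%, against 26.5% and 27.2% of all genes tested. The siderofexin *Sfxn5* of mitochondria averaged 36.9 ± 3.54 CPM in Ctrl and 151.3 ± 9.13 CPM in LIP (± SD of 3 libraries) and rose by 2.04 on the log2 scale (adjusted p = 7.05e-07). *Mfsd14b* rose by 1.60, *Mfsd2b*, the exporter of sphingosine 1-phosphate in red cells and platelets, by 1.57, and *Mpc1*, a subunit of the mitochondrial pyruvate carrier, by 0.92 (adjusted p = 6.63e-05, 6.15e-04 and 8.85e-05). *Ucp2*, an uncoupling protein of family 25, was the most abundant at a mean FPKM of 167.6 and rose by 0.62 (adjusted p = 1.60e-04). The 3 that were lower were *Letm1*, *Sfxn3* and *Mtch2*, with log2 fold changes of -0.66, -0.65 and -0.58. The sodium gradient that many carriers use is made by the Na,K-ATPase. Of its subunits and regulators, *Fxyd5* rose by 1.36 (adjusted p = 5.90e-07) and *Atp1b1* fell by 0.89 (adjusted p = 0.0173), while *Atp1b3* had a log2 fold change of 0.19 that did not pass (adjusted p = 0.115). Of the metal-responsive genes *Mt1*, *Mt2* and *Mtf1*, the metallothionein *Mt1* rose by 1.18 (adjusted p = 2.67e-04), *Mt2* had a log2 fold change of -1.07 (adjusted p = 0.115) and *Mtf1* one of -0.11 (adjusted p = 0.732).

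Some members are also known from platelets and red cell precursors, and markers of both cells moved between the groups. All 5 platelet markers were higher in LIP, by 1.21 to 1.44 on the log2 scale, with a summed level of 845.9 to 1089 CPM in Ctrl and 2256 to 2653 in LIP. *Slc6a4*, by which platelets take up serotonin, had 23.0, 22.7 and 29.5 CPM in Ctrl and 54.6, 70.7 and 74.2 in LIP (log2 fold change 1.41, SE 0.176, adjusted p = 7.95e-05). *Slc18a2*, which loads monoamines into vesicles and platelet granules, had 9.93, 5.96 and 5.70 CPM in Ctrl and 14.0, 11.5 and 16.5 in LIP (log2 fold change 0.96, adjusted p = 0.0233, and 0.0694 to 0.0882 without Ctrl 2, Ctrl 3 or LIP 3). *Slc24a3*, a sodium/calcium exchanger, had 8.08, 4.004 and 4.85 CPM in Ctrl and 13.0, 11.4 and 9.45 in LIP (log2 fold change 1.00, adjusted p = 0.0291, and 0.0616 to 0.0950 without Ctrl 2, Ctrl 3, LIP 1 or LIP 2). With library totals *Slc18a2* and *Slc24a3* did not pass (adjusted p = 0.111 and 0.119). Of these members, picked after their values were seen, *Slc6a4* lay within the range of the platelet markers and the others below it. The part of platelet RNA in the rises was not tested.

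The 5 erythroid markers tested were all lower in LIP, by 2.80 to 3.21 on the log2 scale, with a summed level of 79140 to 86688 CPM in Ctrl and 11145 to 11429 in LIP. Of 5 members listed as known from red cell precursors, *Slc25a39* and *Slc25a37*, whose values are given above, fell by 2.05 and 0.97, less than the markers. The other members of that list did not pass. *Slc25a38*, which supplies glycine for haem synthesis, had 20.1, 28.2 and 24.1 CPM in Ctrl and 23.9, 27.6 and 20.5 in LIP (log2 fold change -0.01, adjusted p = 0.972). The nucleoside carrier *Slc29a1* and the urea transporter *Slc14a1* had log2 fold changes of -0.26 and -0.19 (adjusted p = 0.367 and 0.660). The part of erythroid RNA in the falls was not tested. Monocyte markers went from 378.9 to 444.8 CPM in Ctrl to 818.6 to 922.4 in LIP, with 3 of 4 higher and 1 lower, and of 3 NK cell markers 2 were higher. Of the 2 eosinophil and basophil markers tested, 1 was higher.

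**Figure D5:**
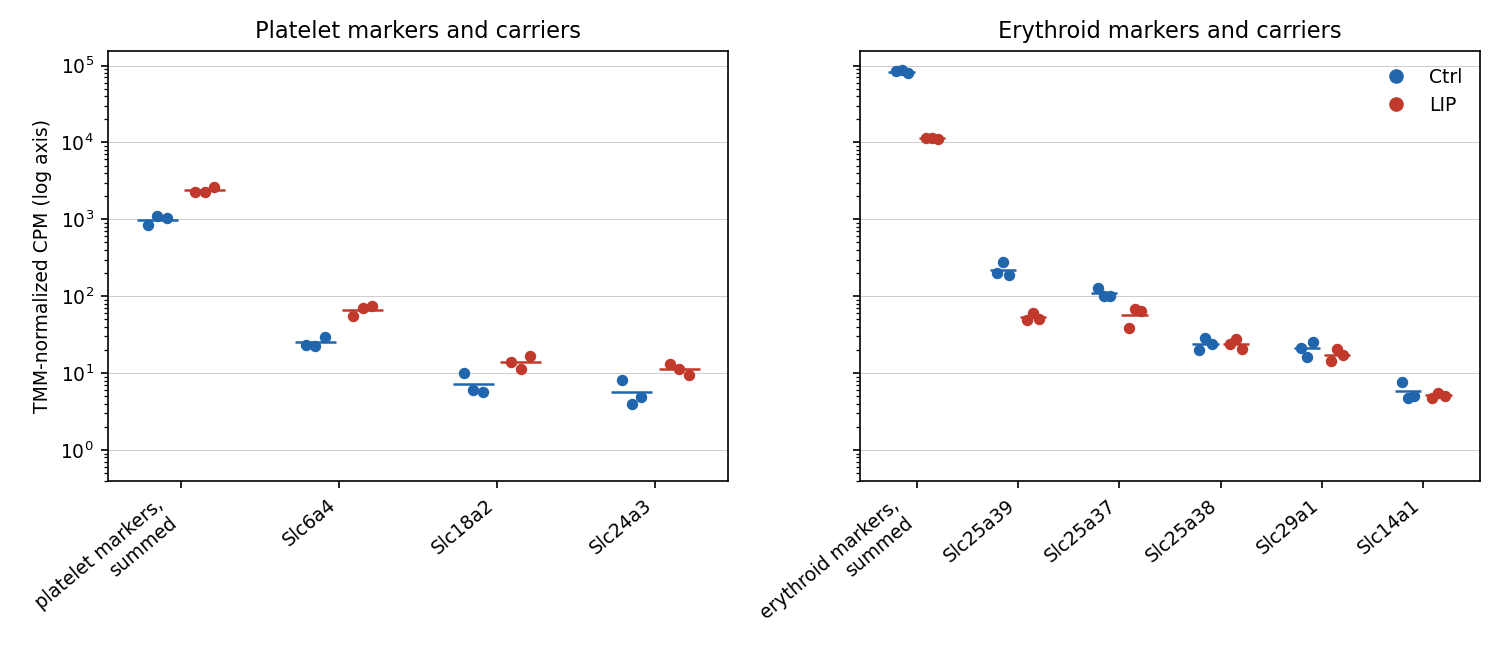
TMM-normalized CPM on a log axis in each of 3 Ctrl (blue) and 3 LIP (red) libraries, with bars at the group means, for summed platelet markers beside 3 carriers known from platelets (left) and summed erythroid markers beside 5 carriers known from red cell precursors (right). Platelet markers are higher in LIP. The 3 carriers beside them were picked after their values were seen, so their shared direction is no separate result. With library totals *Slc18a2* and *Slc24a3* did not pass. Erythroid markers fall from at least 79140 to at most 11429 CPM, and *Slc25a38* lies at 20.1 to 28.2 CPM in Ctrl and 20.5 to 27.6 in LIP.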

How the data were processed

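The samples are 3 Ctrl and 3 LIP libraries of sorted blood neutrophils, each a pool of 5 mice. Groups and replicate numbers come from the sample labels. Both raw counts of reads and FPKM values, scaled to gene length and library total, were deposited by the authors for each gene and library, in GRCm38 coordinates. Per the labels, the submitters' processing notes name cutadapt 1.9 and FastQC. Aligner, counting tool and use of strand are not given in the sources used here, so overlapping and near-identical genes may share reads.

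The counts of 10440 genes, those at or above 1 in mean FPKM, entered the quasi-likelihood test of edgeR 4.0.16 in R 4.3.3, with TMM factors, without a replicate block and with Benjamini-Hochberg adjustment over all of them. The SE of a log2 fold change is its size over the square root of F. CPM are TMM-scaled. The FPKM limit, applied over all 6 libraries, admits 18 members through 1 group alone. Depth was 52186555 to 57262379 counts per library, and the lowest member count was 27. Within a group, chi-square per gene between pairs of libraries was 51.9 to 126, far above sampling noise, and no library was counted as a duplicate. The test was also tried on simulated counts with known changes.

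The members and gene lists were chosen with earlier results of these data known. Named members are the 10 largest rises and falls among called members without overlap, the 10 highest by FPKM, the most changed called members of each class, and those of the pairs compared. Others are named only for a count of 5 or fewer or after their values were seen, as stated. Classes follow the family's substrate. Same-numbered libraries come from different mice. Alternatives were other scalings, DESeq2 1.42.0, limma 3.58.1 on log2(FPKM + 1) and log2(FPKM + 0.1), other filters on low genes, a replicate block and each library left out. A few single genes are not reported here.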

Additional observations from a re-analysis of the deposited data

How the results depend on the processing

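The members' 39 higher and 22 lower calls and their median of 0.08 depended on the scale more than on single pools. With library totals 38 members were lower and the median was -0.25, in limma on log2(FPKM + 1) 35 were lower with a median of -0.16, and in limma on log2(FPKM + 0.1) the median was -0.20. Of the members called, 63.93% were higher with TMM, 41.54% with library totals, and 43.55% and 44.83% in limma; over all genes these shares were 49.38%, 31.23%, 32.11% and 32.27%. With scaling on the mature neutrophil markers 0 were higher, 107 lower and the median was -1.86, a shift built into that scaling. Fewer genes entered at a mean FPKM of at least 5, where 49 members had a value and 19 were higher and 14 lower, and without a filter on low genes 14 were lower. DESeq2 (41 higher, 24 lower), median-of-ratios factors (39 and 22) and filterByExpr (38 and 17) stayed within 1.5 times of each count. With each library left out in turn, 32 to 35 members were higher, 15 to 23 lower, and the median was 0.06 to 0.15.

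The replicate numbers do not pair the samples: the deviations of same-numbered libraries correlated at -0.0083, 0.0444 and 0.0210, and Ctrl 2 and Ctrl 3 correlated best with their own number, Ctrl 1 with LIP 3. With the replicate block 36 members were higher and 23 lower.

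Reversed signs under the alternatives were few for the named members outside the scaling on mature neutrophil markers. *Slc25a5* turned to -0.28, *Slc38a2* to -0.06 and *Slc37a4* to -0.06 with library totals, to -0.25, -0.03 and -0.07 in limma on log2(FPKM + 1), and to -0.26, -0.03 and -0.12 with a pseudocount of 0.1. *Slc25a5* also turned to -0.13 at a mean FPKM of at least 5, and it ran from -0.02 without Ctrl 3 (-0.01 without Ctrl 1) to 0.20 as each library was left out. *Slc37a4* ran from -0.01 without LIP 1 to 0.54. *Slc25a28* turned to 0.03 in DESeq2, with filterByExpr and with median-of-ratios factors, to 0.02 without a filter, and ran from -0.11 to 0.16 as each library was left out (0.13 without Ctrl 3, 0.16 without LIP 2). None of these members had passed. With scaling on the mature neutrophil markers the log2 fold change was -0.54 for *Slc27a4*, -0.60 for *Slc31a2*, -1.43 for *Slc44a2*, -0.41 for *Slc25a24*, -0.08 for *Slc22a20*, -1.58 for *Slc7a7*, -1.21 for *Slc25a11*, -1.89 for *Slc25a5*, -1.12 for *Slc9a3r1*, -0.25 for *Slc15a3*, -1.69 for *Slc38a2*, -0.59 for *Slc28a2*, -0.20 for *Slc7a11*, -0.97 for *Slc33a1*, -0.86 for *Slc25a33*, -1.67 for *Slc37a4*, -0.36 for *Slc2a6*, -0.28 for *Slc12a9* and -0.43 for *Slc16a14*. Without a filter on low genes the calls of *Slc52a2* (adjusted p = 0.124), *Slc16a14* (0.0664), *Slc33a1* (0.123), *Slc4a1ap* (0.0948), *Slc35a4* (0.0795) and *Slc22a20* (0.0910) were lost. Depth limits the lowest members, whose counts began at 27 reads, more than the others.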
